A study of Homo sapiens with 8 samples.

Results

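The PFKFB genes encode the enzymes that set the level of fructose-2,6-bisphosphate, and all 4 of them, PFKFB1, PFKFB2, PFKFB3 and PFKFB4, were taken by symbol from a table of 25168 genes. The family was chosen by the fall of PFKFB4 with venetoclax against vehicle, one of the largest in that comparison, which is therefore described for all members with no test. RNA was sequenced from KG1a cells, a CD34-positive line established from a human acute myeloid leukemia, in 4 groups of 2 libraries, 8 in all. The combination group had 5 µM TAK-981 and 1 µM venetoclax, the venetoclax group 1 µM venetoclax, the TAK-981 group 5 µM TAK-981 and the vehicle group DMSO alone, each for 48 h. TAK-981 blocks SUMOylation, the attachment of the small protein SUMO to other proteins, at its activating enzyme. Venetoclax blocks BCL2, a protein that holds back apoptosis. The labels do not say whether the 2 libraries of a group are separate cultures, and p-values therefore reflect a spread that could be purely technical. Since RNA was taken from whole cultures, fewer cells that express a gene and less of its RNA per cell cannot be told apart.

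Fructose-2,6-bisphosphate is the strongest known activator of phosphofructokinase 1, the enzyme that commits glucose to glycolysis, and it restrains the reverse step. Each PFKFB protein carries a kinase that makes this signal molecule and a phosphatase that removes it, and the isoforms differ in the balance of the 2 activities and in the tissues that use them. PFKFB1 is the liver and muscle form, PFKFB2 the heart form, PFKFB3 an inducible form with a kinase that far outweighs its phosphatase, and PFKFB4 a form first found in testis. PFKFB3 and PFKFB4 are both known targets of the hypoxia-inducible factors, and leukemia cells commonly run a high rate of glycolysis.

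Totals ran from 13204588 to 26304900 counts per library. CD34 stood at 953 to 1519 CPM (counts scaled to the size of each library), and PTPRC, the leukocyte antigen CD45, at 429 to 830 CPM, while the myeloid factor SPI1 reached only 0.430 to 1.15 CPM. Of 10 markers of other cell types only CD3E, at 5.62 to 15.6 CPM, and PECAM1, at 10.3 to 18.6 CPM, had enough counts to be tested, and HBB, COL1A2 and EPCAM had 0 counts in all 8 libraries. The 10 markers summed to 16.5 and 18.2 CPM with the combination, 27.0 and 21.7 CPM with venetoclax, 23.3 and 24.4 CPM with TAK-981 and 31.97 and 33.2 CPM with vehicle, and their part in the results was not tested. The venetoclax libraries stood apart from each other: over 9858 genes of at least 5 CPM their median difference was 0.262 log2 units, against 0.101, 0.088 and 0.0968 within the combination, TAK-981 and vehicle groups. The test used 1 estimate of spread per gene over all 8 libraries, so this gap entered every comparison, and results that change without the venetoclax libraries are given both ways.

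PFKFB4 (chromosome 3, 48517684 to 48562015, minus strand, hg38) was the member with the widest range. It had 59 and 29 counts in the combination libraries, 141 and 55 in the venetoclax libraries, 890 and 962 in the TAK-981 libraries and 1728 and 1686 in the vehicle libraries. Scaled, this was 2.70 and 2.11 CPM with the combination, 10.7 and 2.14 CPM with venetoclax, 38.2 and 51.4 CPM with TAK-981, and 75.05 and 71.97 CPM with vehicle. Every library with venetoclax lay below every library without it, and the combination and venetoclax libraries overlapped. The venetoclax libraries differed 5.01-fold from each other, the widest gap between replicates among the 3 members that could be tested.

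PFKFB3 (chromosome 10, 6144934 to 6235545, plus strand) was the most abundant member in every library. It stood at 31.8 and 33.0 CPM with the combination, 46.0 and 42.9 CPM with venetoclax, 120.5 and 136 CPM with TAK-981, and 112 and 118 CPM with vehicle. The 4 groups did not overlap, and the replicates of each group lay within 1.13-fold of each other.

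PFKFB2 (chromosome 1, 207034366 to 207081024, plus strand) was highest with the combination. It stood at 7.45 and 11.1 CPM with the combination, 3.96 and 6.001 CPM with venetoclax, 6.53 and 7.43 CPM with TAK-981, and 5.47 and 4.48 CPM with vehicle. Both combination libraries lay above all libraries of the other groups, the lower of them by a margin of 7.45 against 7.43 CPM, and the venetoclax libraries lay on either side of the vehicle libraries. Its counts were low, 52 to 163 per library. YOD1, a deubiquitinase gene on the opposite strand, lies within PFKFB2 and had 579 to 1987 counts, and the strand setting of the counting is not given. Of the distinct 51-base words in annotated PFKFB2 transcripts, 51 bases being the read length, 2.09% also occur in YOD1. For PFKFB4 the share was 3.79%, with UCN2, a gene on the same strand that overlaps it by 289 bases. UCN2 had 0 to 2 counts per library. YOD1 had a log2 fold change of 0.53 in TAK-981 against vehicle (edgeR adjusted p = 0.0233), close to the 0.49 of PFKFB2 there. It had -0.83 in the combination against TAK-981 (edgeR adjusted p = 0.00588), -0.25 in the combination against venetoclax (edgeR adjusted p = 0.14) and -0.30 in the combination against vehicle (edgeR adjusted p = 0.0971). The part of YOD1 reads in the PFKFB2 counts was not tested.

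PFKFB1 (chromosome X, 54932961 to 54998534, minus strand) was close to absent. It had 4 and 5 counts with the combination, 0 and 5 with venetoclax, 3 and 6 with TAK-981, and 7 and 1 with vehicle. A count of 0 in the venetoclax library allows up to 0.228 CPM, counting error only. It was left out of the test by the filter on low counts, and when all 18124 genes with a count were tested its adjusted p ran from 0.574 to 0.962 over the 4 comparisons tested. None of the 51-base words of any member occurred in another member's transcripts, so exact reads of this length can be told apart between the 4 genes.

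**Figure D1:**
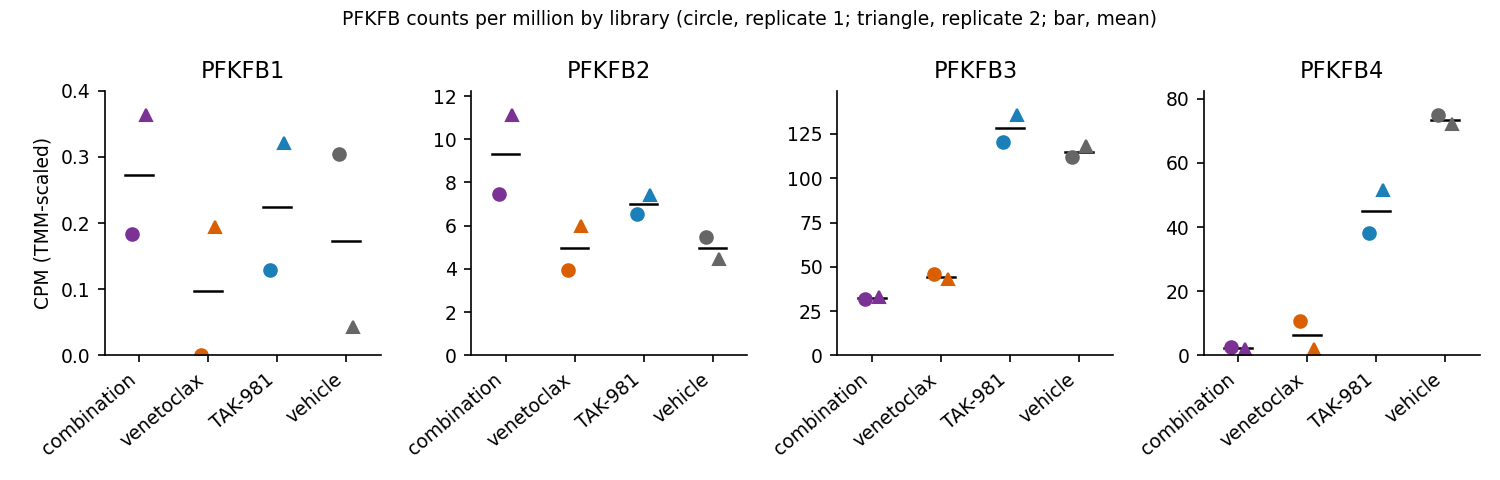
TMM-scaled CPM of the 4 PFKFB genes in each library, with a separate linear axis from 0 for each gene, groups along the x axis, a circle for replicate 1, a triangle for replicate 2 and a bar for the mean. PFKFB3 and PFKFB4 sat low in all 4 libraries with venetoclax, PFKFB2 was highest with the combination, and PFKFB1 stayed below 0.4 CPM.

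Set per length, the members could be compared with each other, as RPKM (CPM divided by the deposited gene length in kb). In the combination libraries PFKFB3 averaged 5.93 ± 0.157 RPKM, PFKFB2 0.928 ± 0.260, PFKFB4 0.395 ± 0.0681 and PFKFB1 0.134 ± 0.0627 (SD, n = 2). In vehicle the order was PFKFB3 at 21.0 ± 0.807 RPKM, PFKFB4 at 12.1 ± 0.358, PFKFB2 at 0.497 ± 0.0699 and PFKFB1 at 0.0849 ± 0.0904 (SD, n = 2). PFKFB4 and PFKFB2 thus stood in opposite order in those groups, with no overlap between the 2 genes in either. In the venetoclax libraries PFKFB4, at 1.76 and 0.352 RPKM, and PFKFB2, at 0.395 and 0.599 RPKM, overlapped and could not be ordered.

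The summed level of the 4 genes was 7.39 ± 0.412 RPKM with the combination, 9.75 ± 1.19 with venetoclax, 31.7 ± 3.66 with TAK-981 and 33.7 ± 0.289 with vehicle (SD, n = 2). PFKFB4 made up 5.38% ± 1.22 of that sum with the combination, 10.3% ± 8.99 with venetoclax, 23.1% ± 2.17 with TAK-981 and 35.8% ± 1.37 with vehicle. PFKFB3 made up 80.3% ± 2.36, 83.9% ± 6.12, 74.3% ± 2.28 and 62.4% ± 1.86 of the sum in the combination, venetoclax, TAK-981 and vehicle groups. PFKFB2 made up 12.5% ± 2.83 with the combination, 5.23% ± 2.12 with venetoclax, 2.21% ± 0.0542 with TAK-981 and 1.48% ± 0.220 with vehicle. Most of the sum in the venetoclax and combination libraries was PFKFB3, and PFKFB2 held more of the sum than PFKFB4 in both combination libraries.

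**Figure D2:**
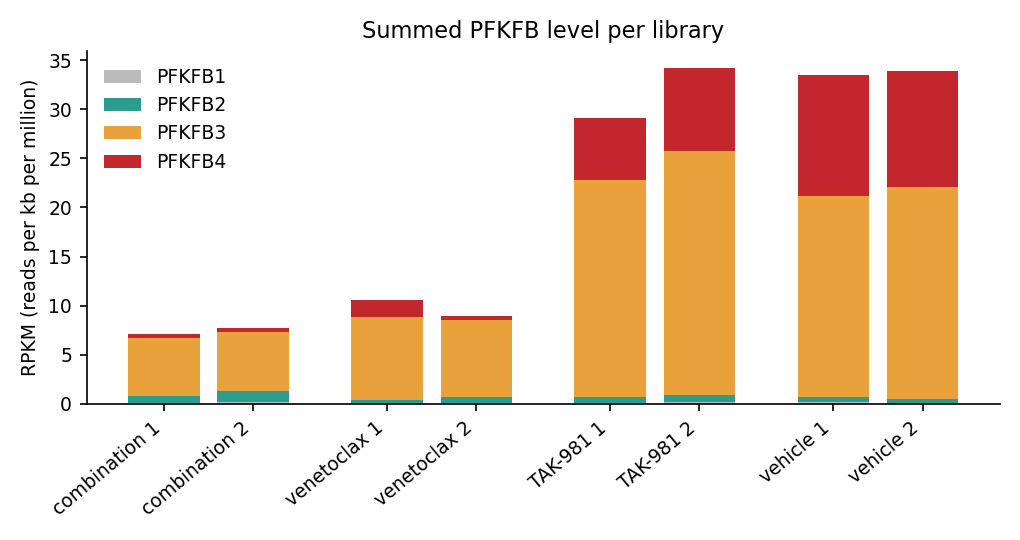
Stacked bars of RPKM (CPM per kb of gene length) for the 4 PFKFB genes in each of the 8 libraries, on a linear axis from 0. The bars of the combination and venetoclax libraries reach 7.10 to 10.6 RPKM and those of the TAK-981 and vehicle libraries 29.1 to 34.3 RPKM, with PFKFB4 a thin band wherever venetoclax was given.

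The combination was compared with TAK-981 to see what venetoclax did in cells that also had TAK-981. None of these 4 libraries entered the comparison that picked out the family. PFKFB4 fell to 2.40 ± 0.414 CPM with the combination, against 44.8 ± 9.33 CPM with TAK-981 (SD, n = 2), a log2 fold change of -4.19 (SE 0.565, edgeR adjusted p = 0.0041) or 18.2-fold lower. PFKFB3 fell to 32.4 ± 0.857 CPM with the combination, against 128 ± 10.9 CPM with TAK-981, a log2 fold change of -1.99 (SE 0.106, edgeR adjusted p = 0.000146) or 3.96-fold lower. PFKFB2 stood at 9.30 ± 2.61 CPM with the combination and 6.98 ± 0.637 CPM with TAK-981, a log2 fold change of 0.40 that did not pass (SE 0.257, edgeR adjusted p = 0.38). The PFKFB2 value was 0.67 without combination replicate 1 and 0.10 without combination replicate 2. So 2 of the 3 members tested fell, and none rose, in a comparison in which 6.03% of the 12843 genes tested fell, 2.76% rose and 8.80% were called in all. All 3 had libraries that did not overlap between the groups, as did 65.3% of all genes tested. PFKFB4 ranked 11 and PFKFB3 44 from the lowest log2 fold change of all of them. The PFKFB4 call ended without combination replicate 1 or combination replicate 2 (adjusted p = 0.0515 and 0.0753, log2 fold changes -4.41 and -4.05), and held without both venetoclax libraries (adjusted p = 3.23e-08).

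Venetoclax alone had the same members low. This is the comparison that chose them and is described only. The log2 fold changes against vehicle were -3.65 for PFKFB4 (SE 0.515, rank 25 from the lowest of 12843), -1.37 for PFKFB3 (SE 0.103, rank 331) and 0.03 for PFKFB2 (SE 0.268, rank 6817). Over all genes tested 20.8% were called in this comparison, 9.44% as lower and 11.4% as higher, and 58.2% had libraries that did not overlap, as PFKFB3 and PFKFB4 did. For PFKFB4 the value rests on the venetoclax library used: it was -5.09 without venetoclax replicate 1 and -2.77 without venetoclax replicate 2.

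With all 8 libraries in the fit TAK-981 alone left all 3 members short of the threshold, and whether PFKFB4 and PFKFB2 passed differed with the libraries used. The vehicle libraries are those against which the fall of PFKFB4 with venetoclax chose the family, so the PFKFB4 tests here are not independent of that choice. PFKFB4 stood at 44.8 ± 9.33 CPM with TAK-981 and 73.5 ± 2.18 CPM with vehicle, a log2 fold change of -0.71 (SE 0.433, edgeR adjusted p = 0.338), and both TAK-981 libraries lay below both vehicle libraries. Without the 2 venetoclax libraries in the fit the log2 fold change was -0.72 (edgeR adjusted p = 0.000756), and with the 4 libraries of the comparison alone it was -0.71 (edgeR adjusted p = 0.000303). PFKFB3 had a log2 fold change of 0.16 (SE 0.0997, edgeR adjusted p = 0.361), which was 0.24 without TAK-981 replicate 1 and 0.07 without TAK-981 replicate 2, and PFKFB2 had one of 0.49 (SE 0.261, edgeR adjusted p = 0.278). PFKFB2 passed with the 4 libraries alone (edgeR adjusted p = 0.0415). So 0 of 3 members passed, where 12.2% of all genes tested did, 6.18% as lower and 5.98% as higher. All 3 had libraries that did not overlap, as did 65.3% of all genes. At an unadjusted p under 0.05 the edgeR count was also 0 of 3, and DESeq2 and limma-voom called none of the 3.

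The combination was set against venetoclax to see what TAK-981 added to it. The venetoclax libraries are those in which the low PFKFB4 chose the family, so the PFKFB4 test here is not independent of that choice. PFKFB2 rose, with 9.30 ± 2.61 CPM in the combination libraries and 4.98 ± 1.44 CPM in the venetoclax libraries (SD, n = 2), a log2 fold change of 0.85 (SE 0.265, edgeR adjusted p = 0.0308). PFKFB3 fell, with 32.4 ± 0.857 CPM in the combination libraries and 44.4 ± 2.19 CPM in the venetoclax libraries, a log2 fold change of -0.46 (SE 0.105, edgeR adjusted p = 0.00885). PFKFB4 had a log2 fold change of -1.25 that did not pass (SE 0.627, edgeR adjusted p = 0.14), with 2.40 ± 0.414 CPM in the combination libraries and 6.44 ± 6.08 CPM in the venetoclax libraries. Its value was 0.19 without venetoclax replicate 1 and -2.13 without venetoclax replicate 2. In this comparison 39.6% of all genes tested were called, 22.0% as lower and 17.6% as higher, and 68.8% had libraries that did not overlap, so 2 of 3 members is not far from the share of all genes. With the 4 libraries of the comparison alone neither call held (edgeR adjusted p = 0.0795 for PFKFB2 and 0.0883 for PFKFB3). The PFKFB2 call also ended without combination replicate 2, venetoclax replicate 1 or TAK-981 replicate 1 (adjusted p = 0.211, 0.0595 and 0.0513), and the PFKFB3 call without combination replicate 1 or 2 (adjusted p = 0.0633 and 0.0504).

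Against vehicle, the combination lowered PFKFB4 and PFKFB3 and raised PFKFB2. PFKFB3 had a log2 fold change of -1.83 (SE 0.105, edgeR adjusted p = 3.09e-05), 3.55-fold lower. PFKFB4 had one of -4.90 (SE 0.568, edgeR adjusted p = 0.000498), 29.9-fold lower. PFKFB2 averaged 9.30 ± 2.61 CPM with the combination and 4.98 ± 0.700 CPM with vehicle (SD, n = 2), a log2 fold change of 0.89 (SE 0.261, edgeR adjusted p = 0.0327). All 3 members tested passed, where 27.9% of all genes tested did, 15.1% as lower and 12.8% as higher, and 72.6% of all genes had libraries that did not overlap. The PFKFB2 call ended in 5 of the 8 fits that left out 1 library. These were the fits without combination replicate 2 (adjusted p = 0.237), TAK-981 replicate 1 or 2 (0.0576 and 0.0571) and vehicle replicate 1 or 2 (0.091 and 0.201). The vehicle libraries are shared with the comparisons of each drug with vehicle, so these results are not independent of them. They include the comparison in which the fall of PFKFB4 chose the family, so the PFKFB4 test here is not independent of that choice.

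The departure from additivity, the TAK-981 effect (log2) seen beside venetoclax minus the one seen alone, was -0.61 for PFKFB3 (SE 0.145), -0.54 for PFKFB4 (SE 0.763) and 0.37 for PFKFB2 (SE 0.372). The comparison that chose the family is a term of it, so it was not tested. The PFKFB4 value was 0.91 without venetoclax replicate 1 and -1.42 without venetoclax replicate 2, so its sign is not settled by these libraries.

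**Figure D3:**
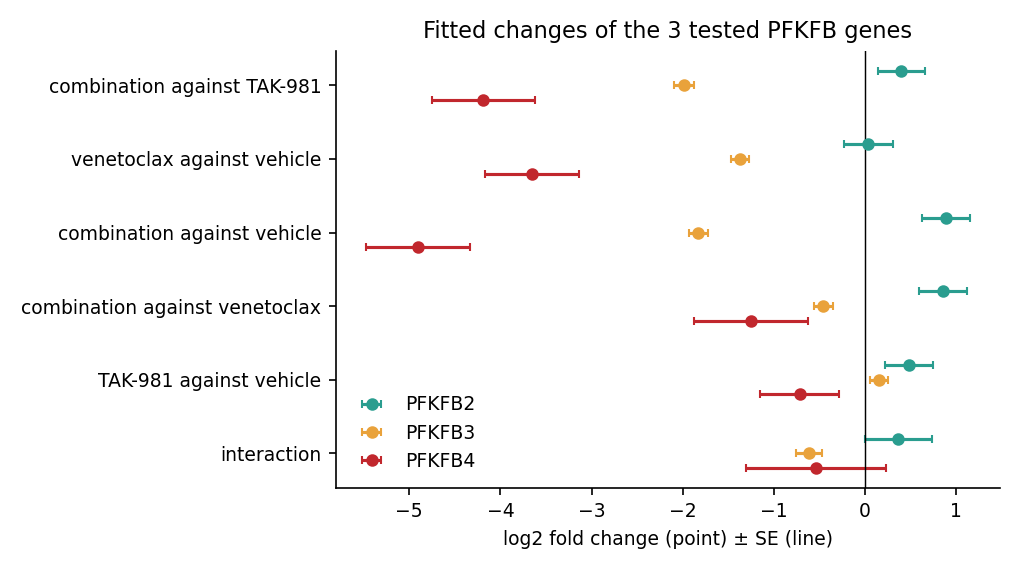
Fitted log2 fold changes (points) with their approximate SE (lines) for PFKFB2, PFKFB3 and PFKFB4 in the 5 comparisons of 2 groups and the departure from additivity, labelled interaction. PFKFB4 and PFKFB3 lie far left of 0 wherever venetoclax was compared with its absence, and PFKFB2 lies at or right of 0 throughout.

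The proximal promoters of the members that moved together are shown because both genes are known targets of the hypoxia-inducible factors, whose binding sites share the core letters ACGTG or GCGTG. The sequences are RefSeq windows on GRCh38.p14, around an annotated start and mostly upstream of it, read 5′ to 3′ on the gene's strand, and capitals mark ACGTG or GCGTG on either strand. Windows were listed for PFKFB1, PFKFB3 and PFKFB4. For PFKFB3 the windows are at chr10:6144671-6144970 and chr10:6202682-6202981, and for PFKFB4 at chr3:48556754-48557053 on the minus strand.
PFKFB3, upstream start: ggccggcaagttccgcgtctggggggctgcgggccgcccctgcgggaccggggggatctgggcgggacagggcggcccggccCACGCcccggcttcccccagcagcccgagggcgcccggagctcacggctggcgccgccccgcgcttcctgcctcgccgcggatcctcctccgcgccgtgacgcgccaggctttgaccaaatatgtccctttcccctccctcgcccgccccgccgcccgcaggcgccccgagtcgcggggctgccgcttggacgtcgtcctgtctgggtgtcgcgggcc
PFKFB3, downstream start: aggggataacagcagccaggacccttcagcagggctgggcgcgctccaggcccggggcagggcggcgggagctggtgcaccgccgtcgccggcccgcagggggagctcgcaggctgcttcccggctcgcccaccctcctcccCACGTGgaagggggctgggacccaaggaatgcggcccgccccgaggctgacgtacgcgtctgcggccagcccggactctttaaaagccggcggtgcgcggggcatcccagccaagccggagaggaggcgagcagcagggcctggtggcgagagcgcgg
PFKFB4: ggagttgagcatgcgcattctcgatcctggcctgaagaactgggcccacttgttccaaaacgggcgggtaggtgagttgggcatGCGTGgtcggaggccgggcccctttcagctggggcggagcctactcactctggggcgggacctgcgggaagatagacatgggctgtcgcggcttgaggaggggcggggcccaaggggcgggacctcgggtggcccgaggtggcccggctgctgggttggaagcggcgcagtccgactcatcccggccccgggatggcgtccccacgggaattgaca
The downstream PFKFB3 window held ACGTG on both strands, overlapping as the palindrome CACGTG at positions -108 and -107 from the start. The upstream PFKFB3 window and the PFKFB4 window each held 1 GCGTG, which lay on the opposite strand at -168 for PFKFB3 and on the gene's own strand at -166 for PFKFB4. The 2 PFKFB1 windows held neither motif. Of 35116 such windows of all genes, 21.4% held ACGTG, 36.5% held GCGTG and 48.4% held at least 1 of them, so a match is common and is a description of these letters only.

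Of 6 genes of phosphofructokinase 1 and its opposing phosphatases 4 were tested, 1 fell and 0 rose in the combination against TAK-981. Their median log2 fold change was -0.09. Over all genes tested 6.03% fell and 2.76% rose. PFKP, the platelet form of phosphofructokinase 1, fell in the combination against TAK-981 with a log2 fold change of -0.82 (edgeR adjusted p = 0.00347). It stood at 41.9 and 42.0 CPM with the combination, 64.7 and 60.3 CPM with venetoclax, 69.2 and 79.1 CPM with TAK-981, and 103 and 112 CPM with vehicle, so each drug went with a lower level. Its fall in TAK-981 against vehicle was -0.54 (edgeR adjusted p = 0.012). The call against TAK-981 ended without combination replicate 2 or TAK-981 replicate 2. PFKL, the liver form, had a log2 fold change of -0.28 (edgeR adjusted p = 0.29) in the combination against TAK-981, and PFKM, the muscle form, 0.69 (edgeR adjusted p = 0.397) at no more than 1.97 CPM. TIGAR, which degrades the same signal molecule, had 0.09 (edgeR adjusted p = 0.847). FBP1 and FBP2, the enzymes of the reverse step, had 0 counts in all libraries.

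Most tested genes of the rest of the glycolytic pathway fell, as PFKFB3 and PFKFB4 did, in the combination against TAK-981. Over all genes tested 6.03% fell and 2.76% rose. Of 21 genes from hexokinase to lactate dehydrogenase, 15 were tested, 11 fell, 0 rose and 4 were not called, with a median log2 fold change of -1.15, against 0.02 over all genes. They included the isomerase GPI at -1.23, the triosephosphate isomerase TPI1 at -1.07, and the enolases ENO1 at -1.46 and ENO2 at -2.26 (edgeR adjusted p from 0.000885 to 0.00115). GPI, for one, stood at 201 and 228 CPM with the combination and 469 and 537 CPM with TAK-981. The count was 12 without both venetoclax libraries, a setting chosen after seeing the data. In that fit calls over all genes rose from 1130 to 3678. The list count was lower without combination replicate 2, as was the count of calls over all genes. PFKFB4 fell further than each of these 15 genes, and PFKFB3 further than all but ENO2.

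In the same comparison 6.03% of all genes tested fell. Of 16 genes of glucose and lactate transport and pyruvate entry, 15 were tested and 5 fell. Among them were the glucose transporters SLC2A1 at -1.21 and SLC2A3 at -0.88, the lactate exporter SLC16A3 at -1.73 and the kinase PDK1, which holds back pyruvate dehydrogenase, at -1.53 (edgeR adjusted p from 0.00241 to 0.0179). The median of that list was -0.31. Its count was 7 without both venetoclax libraries, a fit in which calls over all genes rose from 1130 to 3678. It was lower without any 1 of the combination or TAK-981 libraries, as was the count of calls over all genes.

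Of all genes tested 6.03% fell in the combination against TAK-981. Of 12 other hypoxia-inducible genes 11 were tested and 9 fell there, with a median of -2.01. They included the mitophagy gene BNIP3 at -3.88, the histone demethylase KDM3A at -1.35, the growth factor VEGFA at -2.38 and the collagen hydroxylase P4HA1 at -2.68 (edgeR adjusted p from 0.00276 to 0.00326). The count was 10 without both venetoclax libraries, a fit in which calls over all genes rose from 1130 to 3678. It was lower without any 1 of the combination or TAK-981 libraries, as was the count of calls over all genes.

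**Figure D4:**
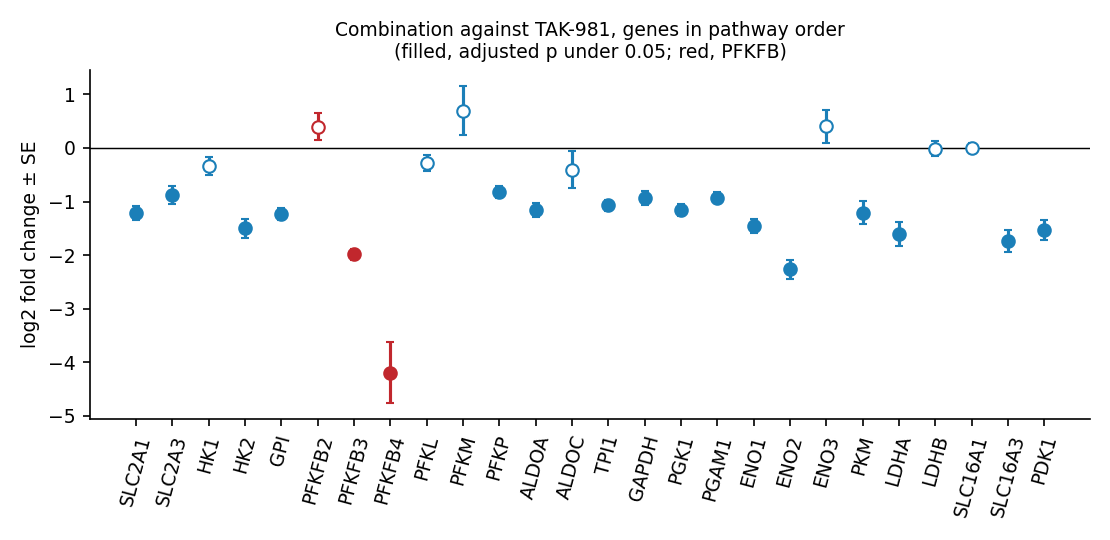
Log2 fold change ± SE in the combination against TAK-981 for the tested PFKFB genes (red) and for genes of glucose entry, glycolysis and lactate export (blue), in the order of the pathway, filled where the adjusted p was under 0.05. PFKFB4 lies lowest at -4.19, and of the blue genes SLC2A1 at -1.21, ENO2 at -2.26 and SLC16A3 at -1.73 are examples along the order.

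Genes that govern the PFKFB enzymes were mostly not called in the combination against TAK-981. The same holds for all genes tested, of which 8.80% were called. HIF1A, the oxygen-regulated subunit of the hypoxia factor, stood at 181 and 181 CPM with the combination and 213 and 218 CPM with TAK-981, a log2 fold change of -0.25 (edgeR adjusted p = 0.408). EPAS1, its relative, had 0.85 (edgeR adjusted p = 0.0928). Of the 7 tested genes of the list of HIF factors and oxygen sensors only EGLN1, a prolyl hydroxylase that is itself hypoxia-inducible, was called, at -1.24 (edgeR adjusted p = 0.00115), and the median was -0.06. Of 14 tested regulators, which include subunits of the kinase AMPK and AKT kinases that act on PFKFB proteins, only PRKAA1, a catalytic subunit of AMPK, fell, at -0.51 (edgeR adjusted p = 0.0337), and that call ended whenever a library other than one of venetoclax was left out. PRKAA2, the other catalytic subunit, had 0 counts in all libraries. MYC had 0.28 (edgeR adjusted p = 0.286). In the combination against venetoclax 39.6% of all genes tested were called. Of the 7 HIF factors and oxygen sensors 2 fell and 2 rose there, and of the 14 regulators 2 fell and 1 rose. There HIF1A had -0.67, EPAS1 0.94 and MYC -0.61 (edgeR adjusted p = 0.0146, 0.0258 and 0.0105), and PRKAA1 was not called. In TAK-981 against vehicle MYC had -0.66 (edgeR adjusted p = 0.0201), and HIF1A, EPAS1 and PRKAA1 were not called.

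**Figure D5:**
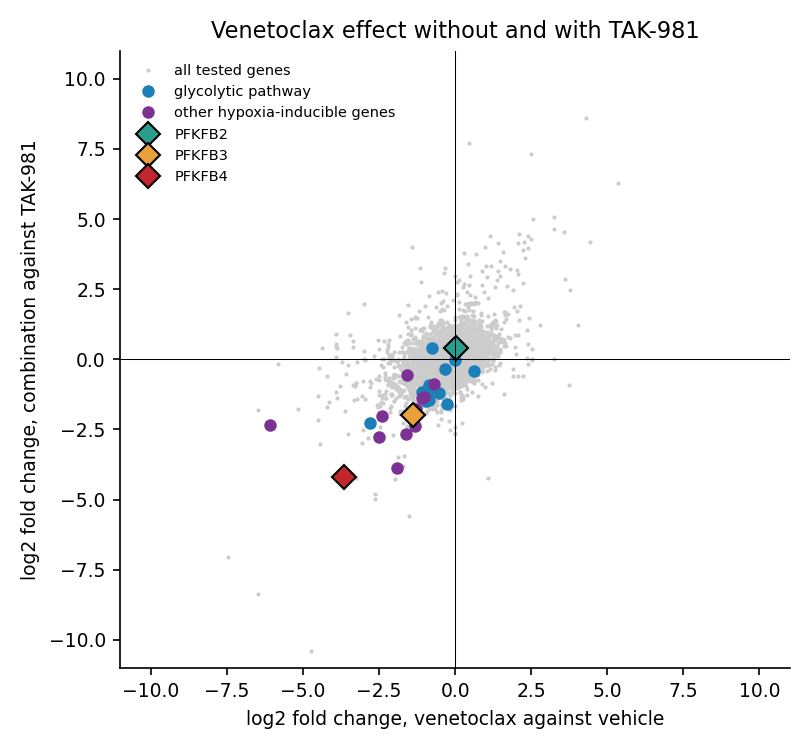
Log2 fold change of venetoclax against vehicle (x axis) and of the combination against TAK-981 (y axis), 2 comparisons with no library in common, for all 12843 genes tested (grey), the glycolytic pathway (blue), the other hypoxia-inducible genes (purple) and the tested PFKFB genes (diamonds). PFKFB4 lies at -3.65 and -4.19, PFKFB3 at -1.37 and -1.99 and PFKFB2 at 0.03 and 0.40.

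The genes whose log2 CPM over the 8 libraries was most like that of each member differed between members. Among 9443 genes of at least 5 CPM, the 5 with the highest Pearson r to PFKFB3 were TPI1 (0.997), ENO1 (0.995), the fucosyltransferase gene FUT11 (0.990), the phosphoglycerate kinase gene PGK1 (0.990) and TNFSF4, the OX40 ligand (0.987), so 3 of the 5 were glycolytic enzymes. TPI1 stood at 216 and 230 CPM with the combination, 285 and 265 CPM with venetoclax, 460.1 and 476 CPM with TAK-981, and 446 and 469.6 CPM with vehicle. Like PFKFB3, it was lowest with the combination and about as high with TAK-981 as with vehicle.

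For PFKFB4 they were PCMTD1 (0.991), the sterol regulator INSIG2 (0.990), the phospholipase gene PLCB4 (0.988), N4BP2L1 (0.985) and the kinase gene TTBK2 (0.984), none of them in the lists above. INSIG2 stood at 35.4 and 39.2 CPM with the combination, 58.7 and 39.3 CPM with venetoclax, 78.6 and 89.8 CPM with TAK-981, and 100.3 and 108 CPM with vehicle. It shared with PFKFB4 an intermediate level with TAK-981 and a venetoclax replicate 1 above replicate 2. These traits were not particular to the genes named here. P4HA1 and PDK1 of the lists above had them too, while BNIP3 and KDM3A stood higher with TAK-981 than with vehicle.

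For PFKFB2 they were ARPC1B, a subunit of the actin-nucleating complex (0.979), CYB561 (0.975), the Hedgehog pathway repressor SUFU (0.973), the adhesion gene NECTIN2 (0.970) and the cofilin kinase gene LIMK1 (0.968). Between members r was 0.952 for PFKFB3 with PFKFB4, -0.32 for PFKFB2 with PFKFB3 and -0.46 for PFKFB2 with PFKFB4. These values describe 8 libraries in 4 groups, whose shared treatment enters every r.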

How the data were processed

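RNA from KG1a cells was sequenced as single reads of 51 bases. The table deposited by the authors gives raw counts per gene for 25168 genes, with hg38 coordinates and a gene length, per the file headers. The submitters' processing notes list Trimmomatic, STAR 2.6.0, HTSeq 0.11.1 and edgeR, with no role for each. The annotation release, strand setting and handling of multiply mapped reads are not given.

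The test was edgeR's quasi-likelihood F test (edgeR 4.0.16, limma 3.58.1, R 4.3.3). Counts were scaled by TMM, and filterByExpr with the groups kept 12843 genes, among them 3 of the 4 members. A single robust fit held all 8 libraries and 1 mean per group. P-values are two-sided and Benjamini-Hochberg adjusted over the 12843 genes, with a threshold of 0.05. An SE is the size of the log2 fold change divided by the root of F, which is approximate. CPM uses TMM-scaled library sizes, RPKM divides CPM by the deposited length in kb, and correlations used log2 CPM with a prior count of 2. The code was checked on simulated counts.

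The members, lists, comparisons and alternatives were chosen with earlier results of these data known. The text names the 4 members, all genes of the phosphofructokinase 1 list, up to 4 genes of each other list called in the combination against TAK-981 (smallest p), HIF1A, EPAS1, MYC, the catalytic AMPK subunits and the 5 genes most like each member, without unnamed or noncoding models. Overlapping genes are named from coordinates, and words shared between genes come from GENCODE release 29 transcripts. Alternatives were other scaling (DESeq2 size factors), other filters (none, or a mean of 1 CPM), a replicate block, other tools (DESeq2 1.42.0 and limma-voom), and fewer libraries (those of the 2 groups compared, all but the venetoclax pair, or all but 1).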

Additional observations from a re-analysis of the deposited data

Results flagged for a closer look

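PFKFB3 is singled out because the TAK-981 effect, judged by the order of the libraries alone, had opposite signs without and with venetoclax. It stood at 120.5 and 136 CPM with TAK-981, both above the 112 and 118 CPM with vehicle, and at 31.8 and 33.0 CPM with the combination, both below the 46.0 and 42.9 CPM with venetoclax. The difference between the 2 effects was -0.61 on the log2 scale (SE 0.145), and it was not tested, since the comparison that chose the family is a term of it. The first of the 2 effects, 0.16, did not pass (edgeR adjusted p = 0.361), and it was 0.24 without TAK-981 replicate 1 and 0.07 without TAK-981 replicate 2. The second passed with all 8 libraries (edgeR adjusted p = 0.00885), and that call ended without combination replicate 1 or 2 (edgeR adjusted p = 0.0633 and 0.0504) and with the 4 libraries of the comparison alone (0.0883). The venetoclax libraries were alike for this gene, 1.07-fold apart. Libraries did not overlap, in either direction, for 65.3% of all genes tested in TAK-981 against vehicle and 68.8% in the combination against venetoclax. The difference between the 2 effects ranked 864 from the lowest of 12843. The order is not particular to PFKFB3: ENO1, FUT11, TNFSF4 and BNIP3 had it too, while TPI1 and PGK1 did not.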

How the results depend on the processing

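Over the alternatives the falls of PFKFB3 in the combination kept their direction and their call in 16 settings each. They lay between -2.07 and -1.91 against TAK-981 and between -1.87 and -1.79 against vehicle. The fall of PFKFB4 against vehicle kept both too (-5.12 to -4.77), but the vehicle libraries are those used to choose the family by PFKFB4. Leaving out 1 library at a time gave ranges of 0.10 to 0.67 for PFKFB2 and -4.41 to -3.98 for PFKFB4 in the combination against TAK-981, 0.07 to 0.24 for PFKFB3 and -0.94 to -0.52 for PFKFB4 in TAK-981 against vehicle, and 0.58 to 1.16 for PFKFB2 in the combination against vehicle. In the combination against venetoclax they were 0.55 to 1.19 for PFKFB2, -0.52 to -0.42 for PFKFB3 and -2.13 to 0.19 for PFKFB4. In venetoclax against vehicle they were -0.33 to 0.27 for PFKFB2 and -5.09 to -2.77 for PFKFB4, and for the departure from additivity 0.0646 to 0.70, -0.70 to -0.52 and -1.42 to 0.91 for PFKFB2, PFKFB3 and PFKFB4. Fits without 1 library take the spread of the lone library from the other groups.

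With the 4 libraries of a comparison alone PFKFB2 and PFKFB4 passed in TAK-981 against vehicle (0.49 and -0.71), and the calls of PFKFB2 and PFKFB3 in the combination against venetoclax ended (0.91 and -0.41). Without both venetoclax libraries PFKFB4 passed in TAK-981 against vehicle (-0.72). With no filter on low counts PFKFB4 passed there (-0.72) and in the combination against venetoclax (-1.26). With the replicate block PFKFB2 in venetoclax against vehicle was -0.00494, and the block changed no other call or direction of a member. Without the block, that value was -0.10 when vehicle replicate 2 was left out and -0.33 when venetoclax replicate 2 was. The labels do not say that a replicate number marks a shared culture or day. Deviations of same-numbered libraries correlated between -0.041 and 0.375 over the pairs of groups, with only 2 numbers, which does not settle whether the numbers pair the samples, and with the block 1253 genes were called in the combination against TAK-981. With limma-voom the PFKFB4 departure from additivity was 0.035. The cause of these changes was not tested.

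Counts over all genes moved most with the libraries in the fit. With the 4 libraries alone 3746 genes were called in the combination against TAK-981 (1130 with all 8), 4096 in TAK-981 against vehicle (1562), 2497 in the combination against venetoclax (5086), 5740 in the combination against vehicle (3582) and 200 in venetoclax against vehicle (2676). Without both venetoclax libraries they were 3678, 3863 and 6110 in the combination against TAK-981, TAK-981 against vehicle and the combination against vehicle, and with no filter 1875 in the first of these. Leaving out 1 library gave 65 to 3696, 336 to 3879, 2386 to 7204, 1431 to 6152 and 253 to 5360 calls in the order of the sentence on the 4 libraries. Depth limits PFKFB1, with 0 to 7 counts, and PFKFB4 in the combination, with 29 and 59.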

Other observations

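The glucose transporters parted company with TAK-981 alone, a pattern chosen after its values were seen. SLC2A3, a high-affinity glucose transporter, stood at 629 and 658 CPM with TAK-981 and 312 and 355 CPM with vehicle, a log2 fold change of 0.95 (edgeR adjusted p = 0.00908). SLC2A1, the common glucose transporter, stood at 50.8 and 58.7 CPM with TAK-981 and 80.6 and 84.6 CPM with vehicle, a log2 fold change of -0.60 (edgeR adjusted p = 0.0208). SLC16A7, a transporter of pyruvate and lactate, rose by 1.26 (edgeR adjusted p = 0.0017). In the combination SLC2A3 stood at 329 and 371 CPM, between the TAK-981 libraries and the venetoclax libraries at 142 and 95.1 CPM. Of the 15 tested genes of transport and pyruvate entry, SLC2A3 and SLC16A7 were the 2 that rose with TAK-981 alone, and 2 fell. Over all genes tested 5.98% rose and 6.18% fell. The count of rises in the list was lower when any vehicle or TAK-981 library was left out, as was the count of calls over all genes.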
